A study of Caenorhabditis elegans with 2 samples.

Results

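The 8 genes that encode the subunits of the cytosolic chaperonin CCT in the nematode Caenorhabditis elegans, cct-1 to cct-8, were examined for binding of the tagged protein ALY-2. They were taken by name from the Ensembl annotation of WBcel235, the assembly also called ce11, where each name matched 1 of 19985 protein-coding genes. Chromatin immunoprecipitation and sequencing (ChIP-seq) had been performed on whole L3 larvae, males and females pooled, of the strain OP217. Its genotype is unc-119(ed3) III; ddIs172, an integrated transgene for eGFP-tagged aly-2, and both samples carry it. They were biological replicates of 1 group, so no other strain, stage or treatment enters, and neither an untagged strain nor an input sample was analysed here. The sources used here do not give the promoter that drives the transgene, and signal from whole larvae averages over all their tissues.

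CCT is a double ring in which every subunit is the product of its own gene, and each subunit takes a fixed place in the ring. The complex closes over newly made proteins and folds them with the use of ATP, and actin and tubulin are its best known clients, many of them delivered by the co-chaperone prefoldin. ALY-2 is a member of the Aly/REF family, adaptor proteins that join mRNA during transcription and processing and hand it to the nuclear export receptor.

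The authors deposited 3 relaxed lists of regions on ce11, to be tested for irreproducible discovery rate, with 17335 regions for the pooled replicates, 30000 for replicate 1 and 26751 for replicate 2. A further, optimal list that came from this test holds 368 pooled regions. The height of a region is the authors' signal value, which has no stated scale, so heights were compared within a list and ranks, counted from the highest region, between lists. A rank percent is the rank divided by the number of regions in the list. A region was assigned to a gene when its summit lay inside the gene or within 500 bp of it. Read depth is unknown, the relaxed lists hold background as well as peaks, and a gene with no listed region is not thereby free of binding.

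Among the CCT genes, cct-1 and cct-8 carried a peak of the optimal list, both upstream of the 5′ end and both in a gap shared with a divergent neighbour. Optimal summits were thus assigned to 2 of 8 genes, where 2.38% of all protein-coding genes had one. At the 5′ end alone the count was again 2, against 0.891% of all genes. Both genes, and no other member, had a region among the 368 highest of replicate 1 (2.15% of protein-coding genes) and of replicate 2 (2.20%), and 1.00% of protein-coding genes had one in both. When each summit counted only for the protein-coding gene with the nearest end, 0 of 8 CCT genes had an optimal peak, against 1.44% of genes. The other 6 genes had weaker regions, at the 3′ end in cct-3, cct-5, cct-6 and cct-7, and cct-4 had none in the pooled list. The genes were chosen by name and the study has 1 group, so these counts are a description and were not tested.

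The highest region of the family lay upstream of cct-1, which encodes the alpha subunit (WBGene00000377, chromosome II, 8185443 to 8187601, plus strand). The pooled region at 8184987 to 8185382 had a height of 95.8 and rank 29. In replicate 1 the height was 46.1 and the rank 30, and in replicate 2 the height was 44.5 and the rank 60. The summits of the replicates were 19 bp apart. By the highest pooled region in reach, cct-1 was at place 29 of 19985 protein-coding genes. The gap between cct-1 and its divergent neighbour mig-5, which encodes a Dishevelled protein of Wnt signalling, is 419 bp long. The pooled summit lay 258 bp upstream of cct-1 and 162 bp upstream of mig-5, so it was nearer to mig-5. In replicate 1 the distances were 228 bp to cct-1 and 192 bp to mig-5. In replicate 2 they were 209 and 211 bp, so that there the summit was nearer to cct-1 by a few bases.

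The sequence around this summit is shown because the highest region of the family lies within it. It covers 300 bases of ce11 between both genes, chrII:8185035-8185334 on the plus strand, read from the RefSeq copy of WBcel235, and the 21 bases centred on the pooled summit are in capitals.
cct-1 summit: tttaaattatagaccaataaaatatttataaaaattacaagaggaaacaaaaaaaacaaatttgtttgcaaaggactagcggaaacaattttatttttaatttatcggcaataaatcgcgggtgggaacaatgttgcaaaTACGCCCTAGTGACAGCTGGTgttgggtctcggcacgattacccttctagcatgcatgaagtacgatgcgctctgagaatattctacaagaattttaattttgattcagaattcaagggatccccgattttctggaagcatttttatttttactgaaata

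The second optimal peak lay upstream of cct-8, which encodes the theta subunit (WBGene00021934, chromosome IV, 1087108 to 1093920, minus strand). The pooled region at 1094131 to 1094526 had a height of 72.0 and rank 76. Here replicate 2 ranked the region higher than replicate 1, with a height of 41.1 and rank 84 against a height of 26.4 and rank 209. The replicate summits were 7 bp apart, the closest pair among all pooled CCT regions found in both replicates. The summit lay 409 bp upstream of the annotated 5′ end of cct-8 and 212 bp upstream of its divergent neighbour Y55F3AR.2, in a gap of 620 bp. The noncoding gene Y55F3AR.4 lies in the same gap, with its nearer end 120 bp from the summit, so 3 annotated genes compete for this peak. A second transcript of cct-8 starts 1749 bp inside the gene. A weak pooled region of height 15.5 and rank 13813 had its summit 75 bp upstream of that start, and replicate 1 had one 139 bp upstream with rank 19895, while the nearest summit of replicate 2 was 1990 bp away.

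The sequence of the cct-8 summit is given for comparison with that of cct-1, since these are the family's optimal peaks. It covers chrIV:1094179-1094478 on ce11, written on the minus strand so that it reads towards cct-8, with the 21 bases centred on the summit in capitals.
cct-8 summit: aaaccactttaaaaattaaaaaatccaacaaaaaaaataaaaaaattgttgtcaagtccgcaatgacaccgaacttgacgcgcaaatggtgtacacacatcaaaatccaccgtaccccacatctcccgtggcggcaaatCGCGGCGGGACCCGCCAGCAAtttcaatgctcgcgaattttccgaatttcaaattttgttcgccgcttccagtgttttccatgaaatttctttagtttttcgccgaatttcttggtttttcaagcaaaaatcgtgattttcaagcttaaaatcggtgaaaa

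The cct-8 window was richer in G and C than the cct-1 window, at 39.7% against 33.7%, and the median was 37.7% over all 368 optimal windows of the same length and 33.3% over all pooled windows. Of 5 words searched on both strands, the cct-1 window held TATAAA once on each strand, in 1 stretch where the matches overlap. It also held GAANNTTC, a pair of heat shock element units facing each other, at 1 place. The cct-8 window held GAANNTTC at 2 places and no TATAAA. Among optimal windows 27.7% held TATAAA and 19.0% held GAANNTTC, and among pooled windows the shares were 33.3% and 20.8%. Neither window held the word GCGCGC, present in 9.51% of optimal windows, or CCGCCC, present in 8.15%, or GAGAGA, present in 26.9%. In the 300 bases before the 5′ end, GAANNTTC was present in 5 of 8 CCT genes, those for subunits 1, 3, 5, 7 and 8, against 19.0% of 19973 protein-coding genes. TATAAA was present in 4 of 8, against 39.6%. None of the 8 flanks held GCGCGC, found in 3.80% of all flanks, or CCGCCC, found in 7.93%, or GAGAGA, found in 21.6%. These matches are a description of letters and do not mark binding sites.

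**Figure D1:**
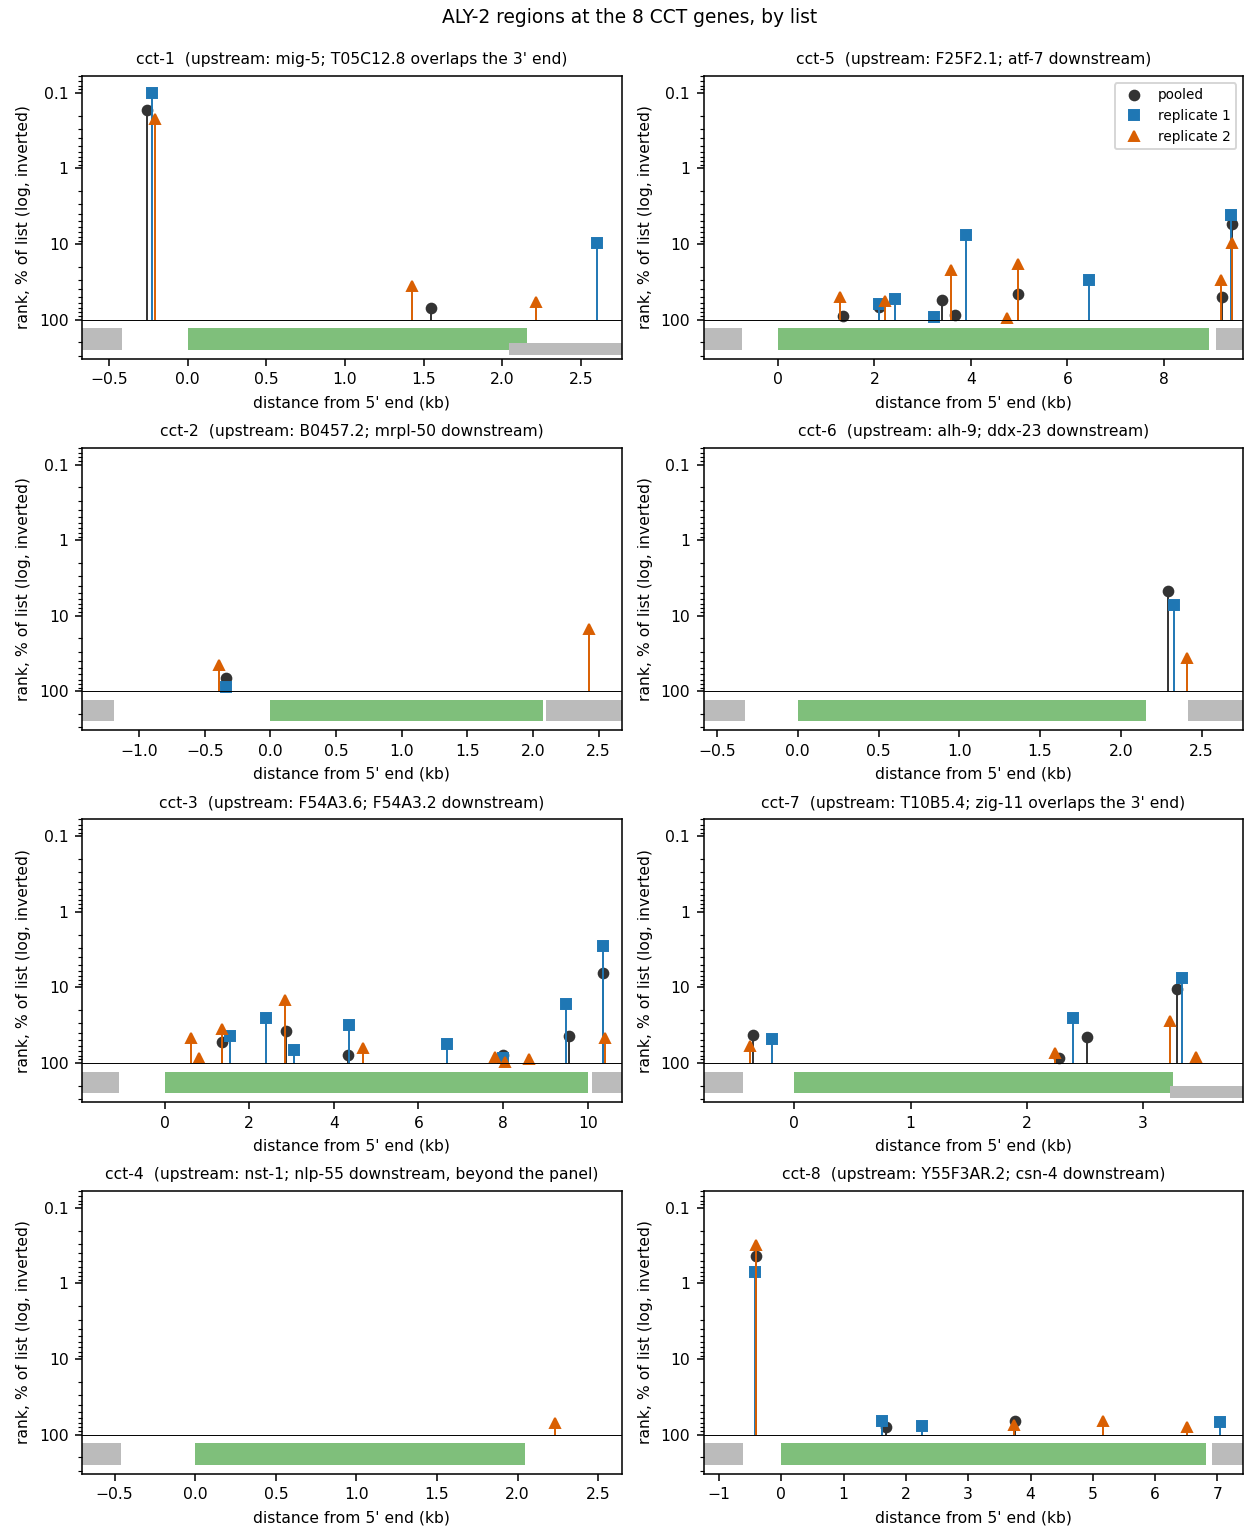
Regions at the 8 CCT genes, with 1 panel a gene. The x axis is the distance of the summit from the gene's 5′ end in kb, the y axis is the rank percent on an inverted log scale, and colours give the list; the green bar is the CCT gene and grey bars are protein-coding neighbours. The tall symbols upstream of cct-1 and cct-8 lie below 1% in all 3 lists, and the highest pooled regions of cct-3, cct-5, cct-6 and cct-7 stand at the right end of their genes.

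All 8 CCT genes have their nearest upstream protein-coding neighbour on the other strand, an arrangement found for 45.4% of protein-coding genes. The gaps were from 330 bp for cct-6 to 1189 bp for cct-2. The pooled list had a summit in 4 of these 8 gaps and the optimal list in 2. Over all 1987 divergent pairs with a gap of up to 1189 bp, a pooled summit lay in 19.9% and an optimal summit in 1.91%. Among the CCT gaps, those of cct-1 and cct-8 were neither the shortest nor the longest.

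Apart from cct-1 and cct-8, a pooled region lay in the gaps upstream of cct-7 and cct-2. At cct-7, which encodes the eta subunit (WBGene00020391, chromosome V, 1872246 to 1875505, plus strand), the upstream region had a pooled height of 19.0 and rank 7355, with ranks of 14660 and 16158 in replicates 1 and 2. Its pooled summit was 354 bp from cct-7 and 85 bp from the divergent gene T10B5.4. In replicate 2 these distances were 381 and 58 bp. In replicate 1 they were 193 and 246 bp, so that there cct-7 was nearer, and an end of the noncoding gene T10B5.13 lay 22 bp away. At cct-2, which encodes the beta subunit (WBGene00000378, chromosome II, 8927741 to 8929815, plus strand), the upstream region was the only pooled one and had a height of 16.5 and rank 11522. The replicates gave it ranks of 25993 and 11890, and its summit lay 338 bp upstream of cct-2 and 852 bp from the 5′ end of B0457.2. It was the one upstream region of the family that was nearer to the CCT gene than to the divergent protein-coding neighbour in the pooled list. Both heights were well below the lowest optimal height of 43.6.

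All 3 lists lacked a region summit in the 500 bp to either side of the start of cct-3, cct-4, cct-5 or cct-6, which made 4 of 8 genes, and 55.1% of all protein-coding genes had no such region either. The counts of genes with a 5′ region were 4 of 8 in each list. The background was 19.4% of protein-coding genes in the pooled list, 29.8% in replicate 1 and 27.2% in replicate 2. The same genes, cct-1, cct-2, cct-7 and cct-8, made up the count in all 3 lists.

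**Figure D2:**
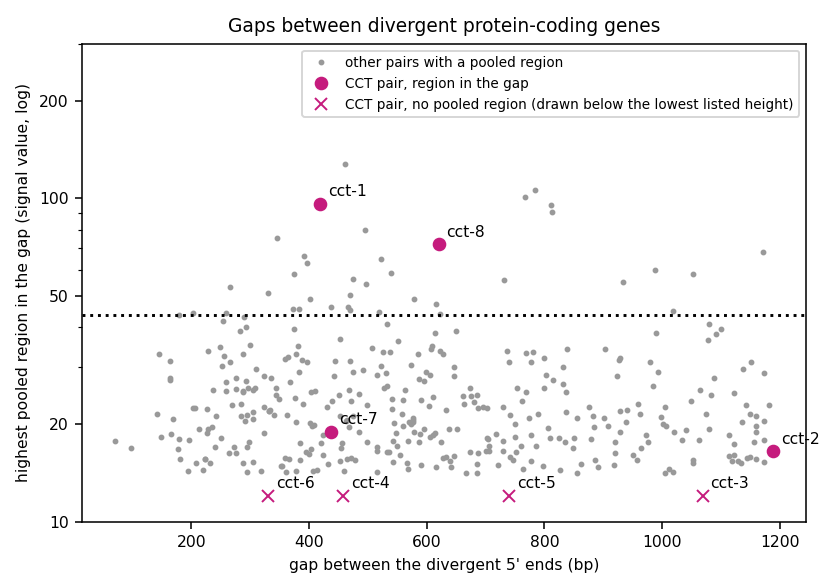
Gap length in bp (x axis) against the height of the highest pooled region between the 5′ ends of divergent protein-coding genes (y axis, log scale), with CCT pairs in magenta and the dotted line at the lowest optimal height, 43.6. The cct-1 and cct-8 pairs stand at 95.8 and 72.0, those of cct-7 and cct-2 at 19.0 and 16.5, and crosses mark the 4 CCT pairs with no pooled summit in the gap.

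At the 3′ ends, pooled regions lay within 500 bp of 4 of 8 CCT genes, against 26.1% of all protein-coding genes, and none of them was optimal, against 1.31%. The counts were 6 of 8 in replicate 1 and 8 of 8 in replicate 2, where 36.0% and 33.6% of all genes had one. For 5 CCT genes, cct-2, cct-3, cct-5, cct-6 and cct-8, the next gene downstream lies on the same strand and starts within 300 bp, which holds for 12.4% of protein-coding genes. In C. elegans many such close tandem genes are transcribed together as operons, and the annotation used here does not name operons. Of these 5 genes, 3 had a pooled summit within 500 bp of the 3′ end, against 31.8% of 2482 genes with such a neighbour, and none had an optimal summit there, against 1.61%.

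The highest of the 3′ regions lay behind cct-6, which encodes the zeta subunit (WBGene00000381, chromosome III, 5853530 to 5855687, minus strand). The pooled region at 5853198 to 5853593 had a height of 34.9 and rank 823. It ranked 2151 with a height of 15.9 in replicate 1 and 9830 with a height of 10.5 in replicate 2, so replicate 1 placed it far higher. The pooled summit fell in the gap of 260 bp to ddx-23, which encodes a DEAD box RNA helicase, 134 bp beyond cct-6 and 127 bp before ddx-23. The summits of replicates 1 and 2 lay 89 and 10 bp before ddx-23, nearer to that gene than the pooled summit.

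This gap is shown whole because its summit lies near the midpoint between both genes. It is chrIII:5853270-5853529 on ce11, 260 bases with 33.5% G and C, written on the minus strand so that it reads from cct-6 to ddx-23, with the 21 bases centred on the pooled summit in capitals.
cct-6 gap: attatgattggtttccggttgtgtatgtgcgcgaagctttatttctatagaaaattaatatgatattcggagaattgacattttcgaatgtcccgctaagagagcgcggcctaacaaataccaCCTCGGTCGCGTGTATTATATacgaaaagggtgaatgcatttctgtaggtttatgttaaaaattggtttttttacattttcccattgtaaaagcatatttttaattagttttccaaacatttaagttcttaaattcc

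The highest pooled region at cct-5, which encodes the epsilon subunit (WBGene00000380, chromosome III, 4499188 to 4508114, minus strand), lay at 4498509 to 4498904 with a height of 33.5 and rank 950. It ranked 1255 with a height of 17.8 in replicate 1 and 2569 with a height of 15.6 in replicate 2. Its summit was 481 bp beyond the end of cct-5 and 338 bp inside atf-7, a bZIP transcription factor gene on the same strand, in an intron. The region was therefore near the limit of the 500 bp window of cct-5, and the short gene C07G2.5 inside atf-7 was nearer still, at 260 bp. A second, overlapping pooled region at 4498722 to 4499117, of height 18.1 and rank 8710, also had its summit inside atf-7, 268 bp from cct-5.

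At cct-3, which encodes the gamma subunit (WBGene00018782, chromosome II, 2233540 to 2243539, plus strand), the highest pooled region lay at 2243697 to 2244092 with a height of 31.8 and rank 1125. The replicates differed widely, with rank 852 and a height of 19.4 in replicate 1 and rank 12579 and a height of 9.5 in replicate 2. Its summit was 356 bp beyond cct-3 and 253 bp inside the tandem gene F54A3.2, in an intron. Replicate 2 had its highest region at cct-3 elsewhere, in an intron 2840 bp from the 5′ end, with a height of 13.8 and rank 3960. In the pooled list this intronic region ranked 6622 with a height of 19.6, and no region of replicate 1 covered its summit, though one of height 8.3 and rank 20202 overlapped the pooled region beside it.

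At cct-7 the highest pooled region covered the 3′ end, at 1875335 to 1875730, with a height of 27.8 and rank 1840. It ranked 2256 with a height of 15.7 in replicate 1 and 7345 with a height of 11.5 in replicate 2. The convergent gene zig-11, which encodes a protein of the immunoglobulin superfamily, overlaps the end of cct-7, and the pooled summit lay 28 bp beyond cct-7 and 55 bp inside zig-11, in its 3′ UTR. Of the family's highest pooled regions, those of cct-7 and cct-2 were the ones nearer to an end of the CCT gene than to an end of another protein-coding gene. In the other 5 of 7 the other gene was nearer, which was so for 28.6% of the 9221 protein-coding genes with a pooled region. The count was 5 of 7 in replicate 1 and 5 of 8 in replicate 2, where the shares over all genes with a region were 24.7% and 26.5%.

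The least marked gene was cct-4, which encodes the delta subunit (WBGene00000379, chromosome II, 8283667 to 8285711, plus strand). The pooled list and replicate 1 had no region in its reach, and replicate 2 had 1, of height 8.0 and rank 18635, with the summit 187 bp beyond the 3′ end. In the same way cct-2 had a 3′ region in replicate 2 alone, of height 13.7 and rank 4073, with the summit 329 bp inside mrpl-50, which encodes a protein of the mitochondrial ribosome and starts 25 bp after cct-2. In all, 7 of 8 CCT genes had a pooled region in reach, against 46.1% of protein-coding genes. The counts were 7 of 8 in replicate 1 and 8 of 8 in replicate 2, against 63.4% and 58.1%.

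The upstream sequence of cct-4 is shown because its gap of 458 bp to the divergent gene nst-1, which encodes a nucleostemin GTPase, is close in length to the gap that holds the cct-1 peak. It covers the 250 bases before the 5′ end, chrII:8283417-8283666 on the plus strand of ce11, in lower case throughout because no list has a summit there. It holds none of the 5 words, and 28.8% of its bases are G or C.
cct-4 upstream: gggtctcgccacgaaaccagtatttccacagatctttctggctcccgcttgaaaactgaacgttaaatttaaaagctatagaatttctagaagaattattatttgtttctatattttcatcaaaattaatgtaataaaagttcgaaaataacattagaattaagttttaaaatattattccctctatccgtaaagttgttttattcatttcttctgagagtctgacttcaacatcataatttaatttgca

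**Figure D3:**
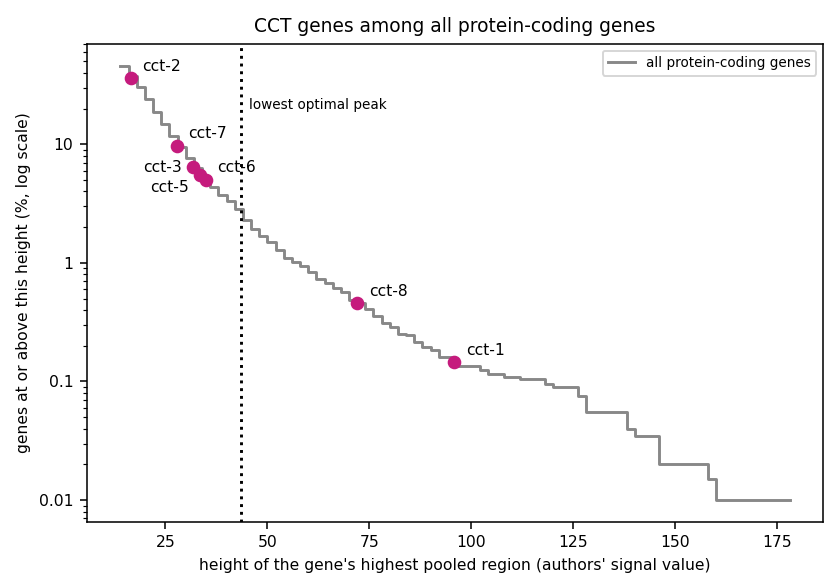
Height of the highest pooled region in reach of each gene (x axis, the authors' signal value) against the percent of protein-coding genes at or above that height (y axis, log scale); the grey line is all genes, magenta points are CCT genes, and the dotted line marks the lowest optimal height, 43.6. Points for cct-1 and cct-8 lie right of the line at 0.145% and 0.455%, and the other 5 lie left of it; cct-4 has no point.

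Ordered by the highest pooled region, cct-1 and cct-8 were followed by cct-6 at place 999 of 19985 protein-coding genes, cct-5 at 1107, cct-3 at 1298, cct-7 at 1925 and cct-2 at 7178. The pooled heights of cct-6, cct-5 and cct-3 lay between 31.8 and 34.9, and their order was not the same in the replicates. By the highest region of each gene in the list, replicate 1 put cct-3 first and cct-6 last of these 3 genes. Replicate 2 put cct-5 first and cct-6 last, but its highest region at cct-3 was the intronic one of rank 3960. The 3′ region that was highest at cct-3 in the pooled list ranked 12579 in replicate 2, below that of cct-6 at 9830. In replicate 2 cct-6 was at place 6406 of all genes and cct-7 at 5273, against 2013 and 2085 in replicate 1. The median of the highest heights was 33.5 over the 7 CCT genes with a pooled region and 20.3 over the 9221 protein-coding genes with one.

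The 15 pooled regions with a summit inside a CCT gene had heights from 14.8 to 19.6 and a median of 16.4, against 18.1 over the whole pooled list. All 24 pooled regions in reach of the family, those outside the genes included, had a median of 17.9. By place, 4 lay at the 5′ end, 14 in the body and 6 at the 3′ end, and over all protein-coding genes 24.5%, 42.1% and 33.4% of assigned regions did. The counts were 4, 15 and 6 of 25 regions in replicate 1 and 4, 17 and 10 of 31 in replicate 2. Over all protein-coding genes the shares were 24.1%, 46.6% and 29.2% in replicate 1 and 24.0%, 46.5% and 29.5% in replicate 2. Of the 15 pooled summits inside a CCT gene 13 (86.7%) were in introns, against 59.6% of 10941 over all protein-coding genes. Intron sequence made up 55.4% of the CCT genes together and 53.7% of all protein-coding genes.

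These intronic regions lay in a few members. Of the 13, 5 lay in cct-5, 4 in cct-3 and 2 each in cct-7 and cct-8, where introns make up 78.4%, 74.0%, 30.7% and 65.4% of the gene. At cct-7, which has 2 transcripts, the annotation has 3′ UTR sequence 2242 bp from the 5′ end. Its 2 intronic summits lie beyond that, at 2279 and 2517 bp, and whether both transcripts span them was not examined. The short genes cct-1, cct-2, cct-4 and cct-6, with 7.18 to 13.5% intron sequence, had no intronic region. The heights in cct-5 and cct-3 ranged from 14.8 to 19.6. The highest-ranked intronic region of any list was in cct-5 in replicate 1, with a height of 15.6 and rank 2316. Counted per length of gene and window, the family had 0.528 pooled regions per kb and all protein-coding genes had 0.206. The values were 0.550 and 0.327 in replicate 1 and 0.682 and 0.310 in replicate 2, so the ratio was smaller in both replicates than in the pooled list.

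Of the 24 pooled regions 13 (54.2%) were overlapped at the summit by a region of both replicates and 11 by a region of 1 replicate, and 40.5% of all pooled regions were found in both. The median distance between the replicate summits was 104 bp for the CCT regions and 75.0 bp for all pooled regions. For the optimal peaks it was 47.5 bp over 362 peaks, and those of cct-1 and cct-8 were below it at 19 and 7 bp. Among optimal peaks 38.0% were in the 368 highest regions of both replicates, as these 2 were.

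**Figure D4:**
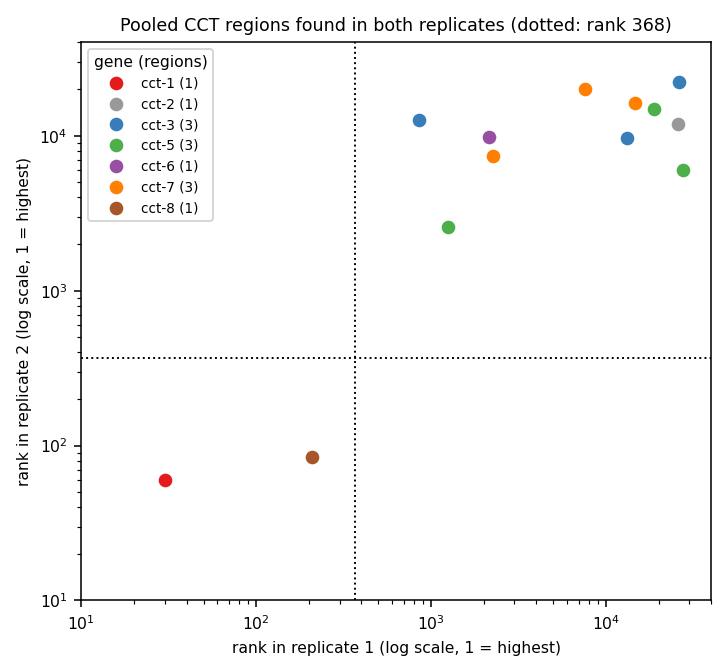
Rank in replicate 1 (x axis) against rank in replicate 2 (y axis), both on log scales, for the 13 pooled CCT regions found in both replicates, coloured by gene; dotted lines mark rank 368. The cct-1 region at ranks 30 and 60 and the cct-8 region at 209 and 84 lie inside both lines, and the next is that of cct-5 at 1255 and 2569.

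The clients and partners of CCT were listed in the same way, for comparison. Among 6 prefoldin genes 3 had a pooled region, against 46.1% of all protein-coding genes. All 3 were at the 5′ end, where 19.4% of all genes had one. No prefoldin gene had an optimal summit, against 2.38%. The highest pooled region was that of pfd-1, with a height of 34.2 and rank 887, 297 bp upstream. It ranked 3445 and 606 in replicates 1 and 2, while the pooled regions of pfd-2 and pfd-6 were found in replicate 1 alone. The mitochondrial chaperonin gene hsp-60, which encodes the related complex of that organelle, had a region of height 20.7 and rank 5498 in reach, 456 bp inside the gene. That region ranked 28905 of 30000 in replicate 1 and 5188 in replicate 2. Beyond the 500 bp window, the divergent gap of 812 bp from hsp-60 to Y22D7AL.10 held an optimal peak of height 95.4 and rank 32. These values were close to those of cct-1. That summit lay 609 bp upstream of hsp-60 and 204 bp from the 5′ end of Y22D7AL.10, and it ranked 56 and 35 in replicates 1 and 2.

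All 5 actin genes had a pooled region, against 46.1% of all protein-coding genes, and none had an optimal summit, against 2.38%. The highest, in the body of act-5, the actin of the intestinal brush border, had a height of 38.5 and rank 588, but ranked 23642 in replicate 1 and 198 in replicate 2. The genes act-1 to act-4 are close copies of each other, so how reads were divided among them is uncertain. Of 16 tubulin genes 10 (62.5%) had a pooled region and 2 (12.5%) an optimal summit, tbb-2 and tba-1, beside the same shares of all genes. At tbb-2, a beta tubulin gene, the peak had a height of 91.3 and rank 34, ranked 92 and 23 in the replicates, and lay 359 bp beyond the 3′ end, with an end of C36E8.4 nearer at 228 bp. At tba-1, an alpha tubulin gene, the peak of height 48.9 lay 194 bp beyond the 3′ end, with an end of drsh-1 nearer at 137 bp, and ranked 13748 in replicate 1 and 243 in replicate 2.

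Among the genes for cytosolic ribosomal proteins, the list with most peaks, 18 of 78 (23.1%) had an optimal summit in reach. The share of all protein-coding genes was 2.38%. Of the 18 genes, 12 had it at the 5′ end, where 0.891% of all genes had one, and the highest was rpl-3 at 178.6. For CCT the share was 25.0%, from 2 genes. The median of the highest pooled regions was 34.9 for the ribosomal protein genes and 33.5 for the CCT genes. With 8 CCT genes a share moves by a large step with each gene, so the closeness of these shares was not tested.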

How the data were processed

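ChIP-seq was performed on 2 biological replicates of whole L3 larvae, forming 1 group per the labels. The deposited signal values of regions, on ce11, were used as given. Per the record files, pooled and replicate lists derive from the alignments and from 1 further file, which the authors' control normalized tracks also derive from. The sources used here do not give the aligner, the peak caller or their versions. Summits are the start of the region plus the deposited offset. Ensembl release 115 gave the genes and RefSeq's WBcel235 the sequence; no ce11 region passed a chromosome end. Place was taken in the order 5′ end, 3′ end, body, with windows of 500 bp. A pooled region was found in a replicate when a replicate region overlapped its summit. Positions are 1-based. Words were searched in 300 bases.

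Counts were set beside the same counts over all protein-coding genes, and no test was run, since the only group has 2 samples and genes are not replicates. Members, lists and words were chosen with earlier results of these data known. The counts of divergent pairs, close tandem neighbours and introns, and the gap upstream of hsp-60, were added after the data were seen. Named genes are all members, the nearest neighbours of their regions, and for each comparison list the genes with an optimal summit or the highest region; of the ribosomal protein genes only the highest is named. Python 3.11.15 and numpy 2.4.6 were used, and the counting was tested on simulated data. Depth is unknown. The lists on ce10 were not used here.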

Additional observations from a re-analysis of the deposited data

How the results depend on the processing

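The optimal peaks of cct-1 and cct-8 lie 258 and 409 bp from the genes, so with a window of 250 bp the count of CCT genes with an optimal summit was 0, as was the count at the 5′ end. It was also 0, for both counts, when a summit counted only for the nearest gene. Both counts were 2 with a window of 1000 bp and with the 184 highest optimal peaks. No optimal list exists for a single replicate. The 368 highest regions of either replicate, as counted above, were used in its place and gave 2 for both counts. The share of all protein-coding genes with an optimal summit in reach was 1.77% with 250 bp and 2.71% with 1000 bp. It was 1.44% with the nearest gene only and 1.16% with the 184 highest. The share at the 5′ end was not counted for these settings. With 250 bp, 0 pooled regions of the family lay at 5′ ends and 2 at 3′ ends. The shares of these places over all protein-coding genes were not counted with 250 bp. Leaving out a replicate, with the relaxed list of the other in place of the pooled list, gave 6 to 10 regions at 3′ ends. The median rank percent of the highest regions was 5.48, became 42.0 with 250 bp and was 4.18 to 15.0 when a replicate was left out. Unknown depth limits every statement that a gene had no region. No paired analysis was possible because the study has 1 group.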
